A study of Mus musculus with 20 samples.

Results

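Messenger RNA of the heart was compared with that of skeletal muscle in wild-type mice. The genotype and tissue labels placed 5 libraries of heart (R3, R1791, R1792, R1795 and R1800) and 5 of skeletal muscle (A33, A40, A51, A55 and A57) in the comparison, 10 of the 20 libraries of the series. The other 10 libraries, 5 per tissue, came from Taz-KD mice, whose ROSA26H1/tetO-shRNA:TAZ transgene makes a hairpin RNA against Taz when doxycycline is given. The wild-type animals were C57BL/6N mice without this transgene, and they too ate chow with 625 mg/kg doxycycline until the age of 20 weeks, so that no library stands for an untreated mouse. The muscle is labelled as femur muscle without a named anatomical muscle, the labels give no sex, and hearts and muscles carry different animal numbers. The counts of the tissues were deposited as separate tables, so that the tissue and whatever else differed between the tables cannot be told apart.

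Heart and limb muscle are both striated muscle built from sarcomeres, but the heart beats without pause on oxidation of fatty acids, lactate and ketone bodies, while most limb muscle of the mouse works in bursts on glycogen and glucose. Most sarcomere, calcium-handling and metabolic proteins are encoded by small gene families with one copy used in cardiomyocytes and another in fast or slow myofibres. Cardiomyocytes are coupled electrically through gap junctions and follow a pacemaker, whereas each myofibre is excited by a motor nerve at the neuromuscular junction. Slow myofibres, which are rich in mitochondria, share several sarcomere genes with the ventricle. In bulk tissue such as this, fewer cells of a type and less RNA per cell cannot be told apart.

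The libraries held 26963288 to 30090918 counts in heart and 36429399 to 61100247 in muscle. Values are CPM, the standard scaling of counts to one common library size, here over protein-coding counts and with TMM factors, listed in the order R3, R1791, R1792, R1795, R1800 for heart and A33, A40, A51, A55, A57 for muscle, with n = 5 libraries per tissue throughout. Differences are log2 of heart over muscle with their standard error (SE) from edgeR. The log CPM of 2 libraries correlated across genes with r from 0.989 to 0.997 within heart, 0.960 to 0.994 within muscle and 0.866 to 0.885 between the tissues. Protein-coding genes took 89.5 to 90.4% of all counts in heart and 97.8 to 98.6% in muscle. Rn7sk, a small nuclear RNA without a poly(A) tail, reached 8219 to 9692 CPM of all counts in heart and 0.188 to 0.440 in muscle, and the median difference of protein-coding genes went from -0.47 in the fifth with the shortest exon length to 0.81 in the fifth with the longest. Reads of Y-linked genes were present in 2 hearts, R3 and R1795, and in 5 muscles. The X-linked RNA Xist measured 0.835 to 881 CPM of all counts in hearts, with a median of 829, and at most 0.0745 in muscles. The balance of the sexes, which the labels do not give, thus appeared to differ between the tissues. Its part in the differences was not tested on its own. A refit restricted to libraries with Y-linked reads, which also lowers the number of hearts to 2, is given below. A muscle named A33 held the most RNA of adipocyte and lymphocyte markers, and A55 the most of slow myofibre markers, as given below.

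The gene models behind the tables also differed in their effect on counts. In the counts of muscle, 8 stretches of 3 to 10 neighbouring genes, 46 genes in all, were at or near 0 in all 10 muscle libraries of both genotypes while their heart counts were high, and 28 of the 46 had no count at all in muscle. These stretches hold Ehd1, Sf1, Atg2a, Celf1, Pygm, Fbxo32, Klhl38, Rapsn, Rasgrp2, Ndufs3, Cacng7 and Tango2. Of the 300 tested genes with over 50% of their exon bases shared with another gene, 57.7% were past 2-fold towards heart, against 16.4% of the 9016 genes with no shared base. Their part in each result was not tested, so such genes are marked where they are named, and counts are also given for 9021 genes that were refitted without any shared exon base, doubled gene model or stretch near 0.

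Of 14276 protein-coding genes tested, 5369 (37.6%) were higher in heart and 4622 (32.4%) were higher in muscle at an edgeR adjusted p under 0.05. Tested against a 2-fold change, 2736 genes (19.2%) were past 2-fold towards heart and 1604 (11.2%) towards muscle. The tissues thus differed in most of the transcriptome, and every list below is read against these shares and against a median difference of 0.07 over all genes. Tested genes had passed a filter on low counts, which a gene near 0 in one tissue passes through the other. The direction of such genes, which occur in many lists below, is largely fixed by the filter. The direction of the calls depended on the scaling. Heart took 53.7% of all calls and 63.0% of the 2-fold calls, but 70.8% and 80.2% when library totals replaced the TMM factors, which moved the median of all genes to 0.49. Among the 9021 genes with undisturbed models, 1574 were past 2-fold towards heart and 1001 towards muscle. Single genes near 0 in muscle remain in this set, such as Ide with a mean of 91.0 CPM in heart and 0.00892 in muscle. Whether the gene models or the counting lie behind such values was not tested.

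**Figure D1:**
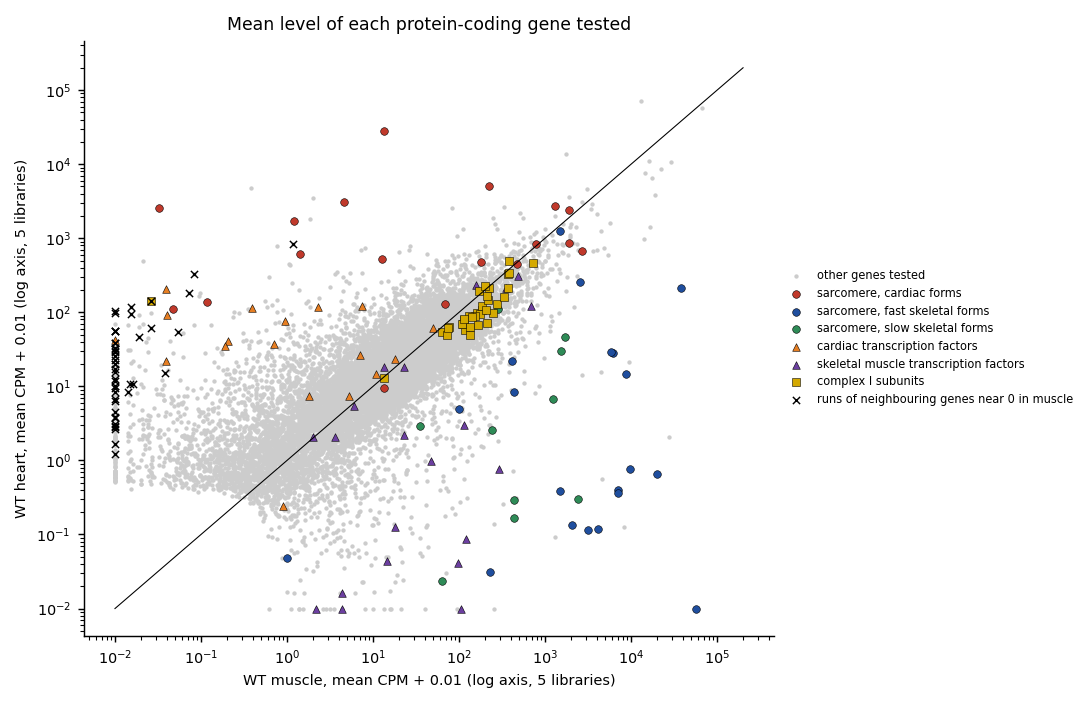
Mean CPM of every tested protein-coding gene in wild-type muscle (horizontal) against wild-type heart (vertical), both on log axes after adding 0.01 CPM, with gene lists in colour, a diagonal of equal levels and crosses for genes in the 8 stretches near 0 in the muscle table. Sarcomere and transcription factor genes of each tissue lie far from the diagonal, with Myh6 and Mybpc3 at the heart side and Myh4, Acta1 and Pvalb at the muscle side.

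Counted per kilobase of exon, the most abundant messages of both tissues came from the mitochondrial genome and the contractile apparatus. The 10 highest genes of heart were mt-Co1, mt-Cytb, mt-Nd1, mt-Nd2, mt-Nd5, mt-Nd4, Myh6, mt-Nd6, Actc1 and Mb, the last of which encodes the oxygen store myoglobin. In muscle they were mt-Co1, mt-Cytb, Acta1, mt-Nd1, mt-Nd2, Tnnt3, mt-Nd6, mt-Nd4, Myh4 and mt-Nd5, so that 7 of 10 genes were shared, and 52 of the highest 100. The mitochondrially encoded genes took 10.8 to 13.7% of the protein-coding counts in heart and 11.7 to 18.5% in muscle, ranges that overlapped. In TMM-scaled CPM their sums did not overlap, at 84525 to 122165 in hearts and 134803 to 204003 in muscles, and 9 of 13 were higher in muscle and 1 in heart, with a median difference of -1.38. Mitochondrial genes have near-identical nuclear copies, which makes their counts uncertain. Titin (Ttn), the molecular spring of the sarcomere, was the gene with most counts in every heart, at 7.36 to 8.49% of protein-coding counts.

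The contractile genes separated the tissues by whole isoforms. Alpha-myosin heavy chain Myh6 (ENSMUSG00000040752, chromosome 14 from 54941921 to 54966927 of GRCm38), the fast motor of the adult mouse ventricle, measured 21737, 31282, 27075, 27880.3 and 30391 CPM in the hearts. The muscles had 3.73, 15.1, 3.62, 39.7 and 5.11 CPM (log2 difference 11.01 ± 0.95 (SE), edgeR adjusted p = 1.72e-06), so that no muscle came near any heart. Myh4 (ENSMUSG00000057003, chromosome 11 from 67238029 to 67260446), the motor of the fastest type IIb myofibres, had 38329, 53580.1, 82497, 8452 and 99988 CPM in the muscles and not 1 count in any heart. Set against a floor of 3 counts over the hearts, Myh4 was at least 2089100.0-fold higher in muscle, although its level differed over 10-fold among the muscles and was lowest in A55. Myh7, the beta-myosin of slow fibres and of the stressed or fetal ventricle, did not pass the test, with 801, 752, 822, 934 and 965 CPM in hearts and 179, 3753, 570.0, 4989 and 64.5 in muscles (log2 difference -1.16 ± 0.93 (SE), edgeR adjusted p = 0.285). Per kilobase, Myh6 made 97.6 ± 0.352% (SD) of myosin heavy chain RNA in hearts and Myh7 2.38 ± 0.352%, while Myh4 made 79.8 ± 24.7% in muscles with a range from 36.8 to 96.6%.

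Sarcomeric actin was divided in the same manner between a cardiac and a skeletal gene. Cardiac Actc1 (ENSMUSG00000068614, chromosome 2 from 114047282 to 114053548) measured 4112, 3877, 4774, 5721 and 6736 CPM in hearts and 219.5, 194, 341, 30.4 and 333 in muscles (log2 difference 4.49 ± 0.56 (SE), edgeR adjusted p = 3.06e-05). Skeletal Acta1 (ENSMUSG00000031972, chromosome 8 from 123891769 to 123894751) measured 159, 34.4, 367, 241 and 261 CPM in hearts and 23890.1, 39947, 45018, 34370.3 and 45897 in muscles (log2 difference -7.48 ± 0.64 (SE), edgeR adjusted p = 1.69e-06). The libraries of the tissues did not overlap for either gene, and the skeletal gene was the more variable among hearts, with its lowest value in R1791. Actc1 made 95.9 ± 2.33% (SD) of actin RNA in hearts and Acta1 99.4 ± 0.304% in muscles.

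For the actin and myosin genes Actc1, Acta1, Myh6 and Myh4, the 250 bases before the start of each are shown from RefSeq (GRCm38.p6), 5′ to 3′ on the strand of the gene. Capitals mark matches to CAGCTG (an E-box), to CATTCC (an MCAT box, GGAATG when read on the other strand) or to the CArG box, the binding element of serum response factor, all searched on both strands. A GATA site, AGATAA, and a strict palindromic form of the MEF2 site were searched as well and had no match in these windows. The windows are Actc1 (chr2:114052876-114053125, minus strand), Acta1 (chr8:123894776-123895025, minus strand), Myh6 (chr14:54966608-54966857, minus strand) and Myh4 (chr11:67237562-67237811, plus strand). The start is that of RefSeq and differs from the end of the gene span used for the counts. For Actc1 and Myh6 the window lies inside the gene span given above.
Actc1: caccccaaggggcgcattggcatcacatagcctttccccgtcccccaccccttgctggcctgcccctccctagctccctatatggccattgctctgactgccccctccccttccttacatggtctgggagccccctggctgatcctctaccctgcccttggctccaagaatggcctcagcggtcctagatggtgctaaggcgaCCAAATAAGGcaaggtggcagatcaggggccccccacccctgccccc
Acta1: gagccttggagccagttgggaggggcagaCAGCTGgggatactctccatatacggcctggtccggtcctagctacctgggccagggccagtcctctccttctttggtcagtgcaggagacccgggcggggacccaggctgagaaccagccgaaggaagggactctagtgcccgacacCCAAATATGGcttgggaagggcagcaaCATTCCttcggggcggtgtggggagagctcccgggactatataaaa
Myh6: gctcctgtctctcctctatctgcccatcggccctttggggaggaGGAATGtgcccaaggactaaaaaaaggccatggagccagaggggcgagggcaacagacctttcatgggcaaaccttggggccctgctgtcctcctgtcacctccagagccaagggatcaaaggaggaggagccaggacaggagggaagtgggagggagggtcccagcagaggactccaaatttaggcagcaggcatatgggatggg
Myh4: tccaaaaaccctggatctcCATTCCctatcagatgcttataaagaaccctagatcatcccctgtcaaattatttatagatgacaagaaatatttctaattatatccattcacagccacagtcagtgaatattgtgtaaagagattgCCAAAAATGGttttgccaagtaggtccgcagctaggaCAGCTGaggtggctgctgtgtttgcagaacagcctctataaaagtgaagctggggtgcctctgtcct
The CArG box lay 47 bases before the start in Actc1, 73 in Acta1 and 104 in Myh4, and the Myh6 window held none. An E-box was found in Acta1 and Myh4, 221 and 67 bases before the start. Over the 11063 tested genes with a RefSeq promoter, 12.1% held the E-box, 10.7% the MCAT box, 5.99% the GATA site, 1.18% the CArG box and 0.497% the MEF2 site in the same window. The shares were 12.9, 11.9, 6.93, 1.43 and 0.560% of the 1964 genes past 2-fold towards heart, and 13.9, 10.8, 5.61, 1.6 and 1.20% of the 1248 genes past 2-fold towards muscle. A match is a description of these letters and no evidence of binding.

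The troponins, which give the thin filament its sensitivity to calcium, split as sharply. Cardiac troponin I (Tnni3), which carries the phosphorylation sites for adrenergic control, measured 1383, 2044, 1455, 1666 and 1937 CPM in hearts and 2.63, 0.802, 0.464, 1.61 and 0.441 in muscles (log2 difference 10.47 ± 0.61 (SE), edgeR adjusted p = 9.66e-08). Fast troponin I (Tnni2) measured 0.333, 0.437, 0.297, 0.336 and 0.368 CPM in hearts and 5893, 7601, 8716, 5102 and 7988 in muscles (log2 difference -14.27 ± 0.31 (SE), edgeR adjusted p = 1.93e-10). Each gene was thus almost silent in the tissue where the other was high. Tnnt2 and Tnnt3, the cardiac and fast forms of troponin T, differed by 9.39 ± 0.34 and -14.92 ± 0.50. Troponin C could not be judged, since the fast form Tnnc2 had 0.688 to 1.24 CPM in muscle, near 0 against 5102 to 8716 for its partner Tnni2, with 74% of its exon bases shared with a gene on the other strand. The cardiac and slow form Tnnc1 ranged from 15.6 to 2660.3 CPM in muscles around hearts at 634 to 1022.

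Cardiac myosin-binding protein C (Mybpc3), a brake on the myosin heads and a frequent site of mutations in hypertrophic cardiomyopathy, had the largest fitted difference of the genes past 2-fold towards heart with a mean of at least 50 CPM there. It measured 2215, 1935, 2653, 2998 and 3101 CPM in hearts and 0.0491, 0, 0.0309, 0.0309 and 0 in muscles (log2 difference 16.69 ± 0.46 (SE), edgeR adjusted p = 5.19e-10). Muscle used Mybpc2, the fast form, and Mybpc1, the slow form, at 68.4 ± 28.5% and 31.6 ± 28.5% (SD) of the family. The light chains Myl2 and Myl3 are shared by ventricle and slow fibres. Myl2 measured 2074 to 3166 CPM in hearts and 95.8, 1421, 497, 4410.1 and 72.4 in muscles, and A55 lay above every heart. Without A55, Myl2 passed the test (log2 difference 2.38, edgeR adjusted p = 0.0227). Myl3 behaved alike, with 2024 to 2686 CPM in hearts and 118, 2689.6, 687, 5740.3 and 165 in muscles (edgeR adjusted p = 0.316 and 0.721).

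Of 18 tested cardiac forms of sarcomere proteins, 9 were higher in heart and 1 in muscle, with a median difference of 2.95. The exception was Nrap, an anchor of myofibrils at the membrane, with 545 to 825 CPM in hearts and 1611 to 3347 in muscles (log2 difference -1.96 ± 0.24 (SE), edgeR adjusted p = 2.3e-05). Among those not called were Myh7, Myl2, Myl3, Tnnc1, Myoz2 and Csrp3, all of which ranged over 10-fold among muscles and were highest in A55. Without A55, 14 of 20 tested cardiac forms were higher in heart. Of the 10 with undisturbed gene models 7 were. Fast skeletal forms were higher in muscle for 19 of 20, with a median of -10.56, the remaining one being the M-band protein Myom2 (1038 to 1464 CPM in hearts, 590.1 to 2306 in muscles, difference -0.23 ± 0.30). Of 8 tested slow myofibre markers, 2 were higher in heart, 2 in muscle and 4 were not called, with a median of 0.22. All 10 listed slow sarcomere forms were higher in muscle, but Myh7, Myl2, Myl3 and Tnnc1 were listed as cardiac forms instead. The 3 embryonic, neonatal and extraocular myosins were also higher in muscle. These 3 myosins, and fast forms near 0 in hearts such as Myh4, Tnni2 and Tnnt3, entered the test through muscle, which largely fixes their direction. The size of such differences rests on few or no heart counts.

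**Figure D2:**
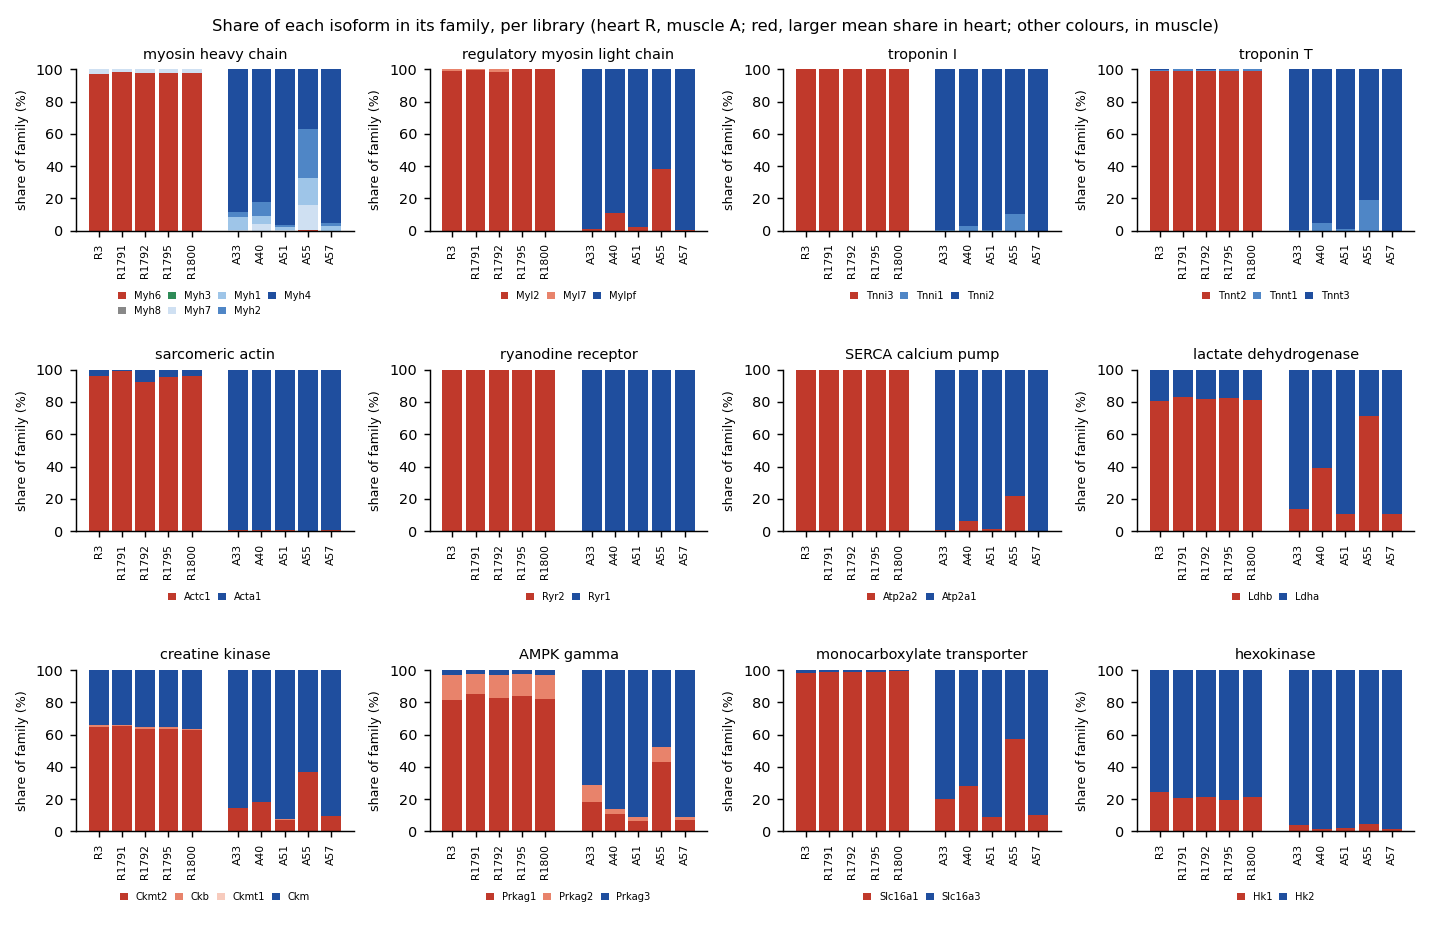
Share of each member in the RNA of its gene family, in percent of counts per kilobase, for every wild-type library (5 hearts, then 5 muscles). Red shades are members with the larger mean share in heart and other colours members with the larger mean share in muscle, such as Myh6 with 97.6 ± 0.352% of myosin heavy chain in hearts and Myh4 with 79.8 ± 24.7% in muscles (mean ± SD).

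The largest sarcomere proteins also differed. Ttn measured 57668, 74709.9, 71339, 74168 and 76495 CPM in hearts and 8465, 14448, 13976, 10374 and 17967 in muscles (log2 difference 2.44 ± 0.25 (SE), edgeR adjusted p = 6.74e-06). It has 116825 exon bases, and the median of all genes in the fifth with the longest exons was 0.81. Nebulin (Neb), which measures out the thin filament in skeletal muscle, had 3793 to 7996 CPM in muscles and 14.8 to 43.6 in hearts (log2 difference -7.63 ± 0.43 (SE), edgeR adjusted p = 7.85e-08). Its small relative nebulette (Nebl) of the cardiac Z-disc went the other way (log2 difference 8.75 ± 0.24 (SE), edgeR adjusted p = 5.35e-10). Of 26 Z-disc and M-band proteins used in both tissues, 16 were higher in muscle and 2 in heart, Ttn and the obscurin relative Obsl1 (1.07 ± 0.11). Those past 2-fold towards muscle included beta-tropomyosin Tpm2 (-8.79 ± 0.49), Pdlim3 (-5.11 ± 0.43), Klhl41 (-3.57 ± 0.15), Tcap (-3.16 ± 0.26) and desmin Des (-1.84 ± 0.19).

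In 44 families of paired isoforms, shares per kilobase were compared by an exact permutation test (two-sided) that took every division of the 10 libraries into 5 and 5. In each family the share of 1 form, in several families of metabolism a minor form in both tissues, was compared between hearts and muscles. In 40 families this share differed at the smallest p this design allows, 0.00794 (0.00873 adjusted over the families). It was higher in heart in 38 of them and lower in heart for the sulfonylurea receptor Abcc9 and for Pygb. The form compared had been listed as the heart form, with earlier results of these data known. The count by direction therefore largely reflects this choice. By the same exact test the families without a call were aldolase (p = 0.802), pyruvate dehydrogenase kinase (p = 0.0873), cytochrome oxidase subunit 6a (p = 0.889) and subunit 8 (p = 0.0476, adjusted 0.0511). The troponin C and glycogen phosphorylase families rest on members that were near 0 throughout the muscle table. Alpha-actinin 3 (Actn3), which is confined to fast fibres, made 79.1 ± 25.7% (SD) of sarcomeric alpha-actinin in muscles and 0.0665 ± 0.0261% in hearts. Regulatory light chain in muscles came mainly from Mylpf (89.3 ± 16.1%) and essential light chain from Myl1 (81.3 ± 24.6%).

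Calcium release and reuptake differed between the tissues in 6 genes higher in heart and 20 in muscle, of 30 tested. The ryanodine receptor Ryr2 (ENSMUSG00000021313, chromosome 13 from 11553102 to 12106945), the release channel opened by calcium entry in the heart, measured 4153, 5366, 4919, 4687 and 4869 CPM in hearts and 0.516, 0.341, 0.124, 0.463 and 0.389 in muscles (log2 difference 13.65 ± 0.38 (SE), edgeR adjusted p = 5.76e-10). Ryr1 (ENSMUSG00000030592, chromosome 7 from 29003344 to 29125179), which is opened by direct contact with the voltage sensor, measured 0.544, 0.655, 0.297, 0.470 and 0.803 CPM in hearts and 3039, 4763, 5548, 2879 and 6782 in muscles (log2 difference -13.01 ± 0.47 (SE), edgeR adjusted p = 3.84e-09). The 2 channels replaced each other almost without remainder. The voltage sensors did the same, with Cacna1c at 666 to 761 CPM in hearts and 5.78 to 10.3 in muscles (log2 difference 6.61 ± 0.20 (SE), edgeR adjusted p = 1.03e-09). Cacna1s measured 8.68 to 11 CPM in hearts and 411 to 1236 in muscles (log2 difference -6.39 ± 0.31 (SE), edgeR adjusted p = 3.1e-08). The adaptor proteins that join Cacna1s to Ryr1 in skeletal muscle followed it, Stac3 with -7.28 ± 0.25 and Jsrp1 with -10.58 ± 0.29.

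The pumps that refill the sarcoplasmic reticulum overlapped less strictly. SERCA2 (Atp2a2) measured 11644, 14767, 13322, 13569 and 14177 CPM in hearts and 176, 3216, 623, 4549 and 127 in muscles (log2 difference 2.96 ± 0.90 (SE), edgeR adjusted p = 0.0126), highest among muscles in A55 and A40. Without A55 the difference of Atp2a2 was 3.70. SERCA1 (Atp2a1) measured 1.24, 2.18, 2.77, 1.95 and 2.11 CPM in hearts and 24309, 27996, 35594, 9541 and 40309 in muscles (log2 difference -13.71 ± 0.59 (SE), edgeR adjusted p = 1.22e-08), lowest among muscles in A55. Phospholamban (Pln), the cardiac inhibitor of SERCA2, had 2949 to 3968 CPM in hearts and 0.881 to 3.40 in muscles (log2 difference 10.74 ± 0.53 (SE), edgeR adjusted p = 3.05e-08), with 64.7% of its exon bases shared with a gene on the other strand. Sarcolipin (Sln), the inhibitor used in slow and atrial muscle, had 1.24, 0.546, 2.37, 0.0672 and 0 CPM in hearts and 2.41, 33.7, 8.13, 117 and 1.01 in muscles (log2 difference -5.25 ± 1.42 (SE), edgeR adjusted p = 0.00655), with a difference of -3.74 without A55 and -6.09 without the heart R1792. The calcium buffer parvalbumin (Pvalb) of fast fibres reached 7750.1, 7309, 12693, 2045 and 11502 CPM in muscles and 0 to 0.333 in hearts (log2 difference -16.04 ± 0.94 (SE), edgeR adjusted p = 1.1e-07). Calcium leaves the cardiomyocyte through the exchanger Slc8a1, at 281 to 416 CPM in hearts and 0.648 to 7.75 in muscles (log2 difference 6.5 ± 0.55 (SE), edgeR adjusted p = 1.49e-06), while its relative Slc8a3 was the muscle form (-8.59 ± 0.50).

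Among 30 tested genes of calcium release and reuptake, 6 were past 2-fold towards heart and 16 towards muscle. Those towards heart were Ryr2, Pln, Slc8a1, Atp2a2, Casq2 and the calmodulin-dependent kinase Camk2d (1.88 ± 0.11). The 2 junctophilins, which hold the membranes of the junction together, were both lower in heart, Jph1 by -3.57 ± 0.34 and Jph2 by -1.04 ± 0.32. Store-operated entry was likewise towards muscle, with the sensor Stim1 at -3.83 ± 0.16 and the pore Orai1 at -2.08 ± 0.13. The calcium stores were divided between Casq2 in hearts (95.9 ± 2.12% of calsequestrin, SD) and Casq1 in muscles (96.8 ± 4.71%).

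The channels that shape the action potential separated the tissues too. The skeletal muscle sodium channel Scn4a, which carries the action potential along the fibre, measured 41.2 to 67.3 CPM in hearts and 170.4 to 759 in muscles (log2 difference -3.16 ± 0.35 (SE), edgeR adjusted p = 1.15e-05). Potassium channels of cardiac repolarisation were high in hearts, with Kcnd2 at 9.87 ± 0.37, its partner Kcnip2 at 8.0 ± 0.27, Kcnq1 at 5.12 ± 0.24 and Kcnh2 at 4.52 ± 0.36. Kcnj5, a subunit of the channel that slows the heart under vagal tone, measured 56.6 to 78.7 CPM in hearts and had 1 count over the muscles, a ratio of 17774 (95% counting interval 3189 to 702085). The chloride channel Clcn1, which keeps skeletal fibres from firing repeatedly, measured 7.86 to 13.4 CPM in hearts and 135 to 349 in muscles (log2 difference -4.57 ± 0.29 (SE), edgeR adjusted p = 1.84e-07). Kcne1 had 1.98 to 6.33 CPM in hearts and no count in muscle, at least 403-fold higher against a floor of 3 counts. In all, 17 of 30 tested sodium, potassium and chloride channel genes were higher in heart and 9 in muscle.

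Electrical and mechanical coupling of cells was a trait of the hearts. Connexin 43 (Gja1), the main gap junction protein of the ventricle, measured 353, 403, 262, 412 and 391 CPM in hearts and 19.9, 14.5, 25.7, 20.3 and 19.9 in muscles (log2 difference 4.18 ± 0.19 (SE), edgeR adjusted p = 1.76e-08). Desmoplakin (Dsp), which ties desmosomes to desmin, measured 1661, 1999.8, 1659, 1905 and 1881 CPM in hearts and 0.0491, 0.0401, 0.0309, 9.14 and 0.0259 in muscles (log2 difference 9.97 ± 1.68 (SE), edgeR adjusted p = 0.000282), where A55 was the only muscle above 0.1 CPM and without it the difference was 15.44. N-cadherin (Cdh2) differed by 6.53 ± 0.43, plakophilin 2 (Pkp2) by 4.70 ± 0.26 and desmoglein 2 (Dsg2) by 7.56 ± 0.96. Of 14 tested genes of gap junctions and intercalated discs, 13 were higher in heart. The actin-binding protein Nexn was higher in muscle (log2 difference -1.21 ± 0.22 (SE), edgeR adjusted p = 0.00048).

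The neuromuscular junction gave the opposite picture. The acetylcholine receptor subunit Chrna1 measured 0.151, 0.0364, 0.0330, 0.0672 and 0 CPM in hearts and 19.2, 28.3, 10.5, 25 and 21 in muscles (log2 difference -8.37 ± 0.49 (SE), edgeR adjusted p = 1.03e-07). Chrnd had 2.07 to 5.31 CPM in muscles and no count in any heart, at least 165-fold higher in muscle. Both subunits, near 0 in hearts, entered the test through muscle, which largely fixes their direction. Musk, the kinase that organises the junction, differed by -4.63 ± 0.52 and acetylcholinesterase (Ache) by -3.52 ± 0.30. Of 14 genes tested, 9 were higher in muscle and 3 in heart. The latter were Lrp4 (1.23 ± 0.19), the kinase subunit Prkar1a (1.01 ± 0.16) and the receptor clustering protein Rapsn, whose muscle counts lay in one of the stretches near 0.

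The heart is governed instead by muscarinic and adrenergic receptors. The muscarinic receptor Chrm2, through which the vagus slows the heart, measured 158, 235, 166, 163 and 177 CPM in hearts and 0.172, 0.0802, 0.0618, 0.0926 and 0.0259 in muscles (log2 difference 10.94 ± 0.29 (SE), edgeR adjusted p = 4.92e-10). The beta-1 receptor Adrb1 was a heart gene (17.8 to 25 CPM against 0.0778 to 1.25, log2 difference 5.64 ± 0.60 (SE), edgeR adjusted p = 8.67e-06). The alpha-1 receptors Adra1a and Adra1b differed by 5.08 ± 0.38 and 5.83 ± 0.25. Of 15 tested genes of autonomic and peptide receptors, 10 were higher in heart and 2 in muscle. Among the latter Adrb3, an adipocyte receptor, reached 37.8 CPM in A33 (0.361 to 37.8 over the muscles), with a difference of -4.10 ± 1.30 in all libraries and -2.39 without A33.

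Transcription factors were among the most exclusive genes. Nkx2-5, a homeobox factor required for the heart to form, measured 42.4, 40.1, 40.5, 42.5 and 48.8 CPM in hearts and had no count in any muscle, at least 3788-fold higher against a floor of 3 counts. Gata4 measured 93.6, 91.1, 87, 102 and 91 CPM in hearts and 0.123, 0, 0, 0 and 0.0259 in muscles (log2 difference 11.39 ± 0.41 (SE), edgeR adjusted p = 4.48e-09). Tbx20 measured 239.9, 177, 198, 195 and 215 CPM in hearts and 0, 0.0200, 0.124, 0 and 0 in muscles (log2 difference 12.76 ± 0.44 (SE), edgeR adjusted p = 3e-09). All 3 were steady among hearts, and the next of the list followed with Irx4 at 9.55 ± 0.51, Myocd at 8.21 ± 0.49, Hand2 at 7.66 ± 0.53, Tbx5 at 7.57 ± 0.58 and Gata6 at 6.31 ± 0.30. Of 18 cardiac factors tested, 13 were higher in heart, each past 2-fold, and 0 in muscle, with a median of 5.73. Members near 0 in muscle, such as Nkx2-5, Gata4 and Tbx20, entered the test through heart, which largely fixes their direction.

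The myogenic factors of skeletal muscle were the mirror image. Myf6, the myogenic factor with the highest level in adult fibres, had 100.3, 105, 119, 55.4 and 146 CPM in muscles and no count in any heart, at least 3900.1-fold higher in muscle. Myod1 measured 0 to 0.0728 CPM in hearts and 11.2, 16.4, 20.8, 3.24 and 20.6 in muscles (log2 difference -8.61 ± 0.73 (SE), edgeR adjusted p = 1.52e-06), lowest in A55. Tbx15, a factor of fast fibres, measured 0.546 to 0.941 CPM in hearts and 168 to 358 in muscles (log2 difference -8.55 ± 0.30 (SE), edgeR adjusted p = 3.84e-09). Lbx1 differed by -11.37 ± 0.54 and the coactivator Vgll2, highest in A55, by -10.49 ± 0.79. Pax7, the factor of satellite cells, had 3.17 to 5.97 CPM in muscles and 1 count over the hearts, a ratio of 471 (95% counting interval 84.3 to 18622). Of 21 factors tested, 16 were higher in muscle and 2 in heart, Mef2a (0.58 ± 0.17) and Meox2 (0.45 ± 0.16), calls that were lost without A33 (0.35 and 0.30) and for Meox2 also without R1795, A40 or A57 (0.36 to 0.40), while Mef2c was higher in muscle (-2.49 ± 0.20). Factors near 0 in heart, such as Myf6 and Myod1, entered the test through muscle, which largely fixes their direction.

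**Figure D3:**
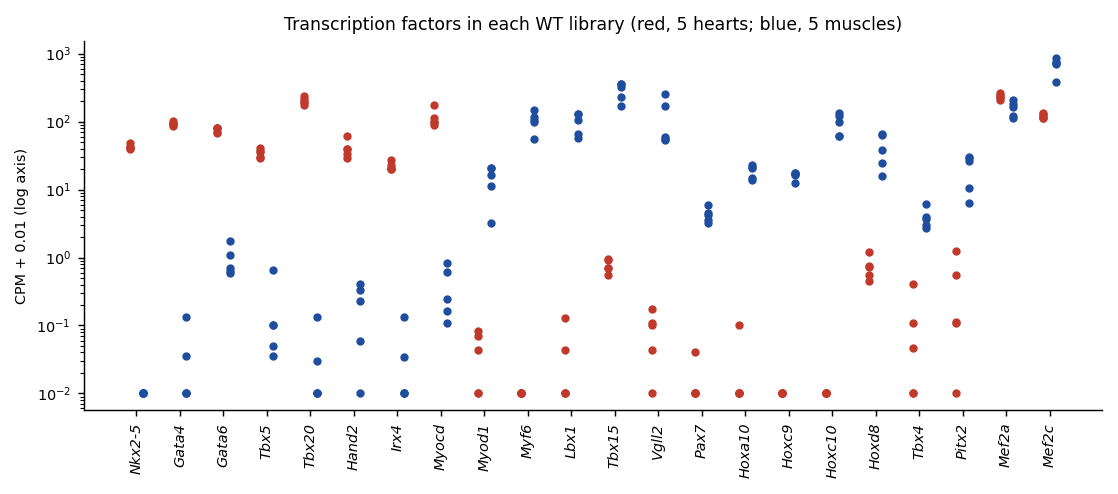
CPM of 22 transcription factor genes in each wild-type heart and muscle library, 1 point per library on a log axis after adding 0.01 CPM. Nkx2-5, Gata4 and Tbx20 lie between 40.1 and 239.9 CPM in hearts and at or below 0.124 CPM in muscles, and Myf6 lies between 55.4 and 146 CPM in muscles and at 0 in hearts.

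Genes that record the position of a limb on the body axis were at or near 0 in the hearts. Hoxc10, a hindlimb homeobox gene, had 61.4, 98.1, 120.3, 62.3 and 136 CPM in muscles and no count in any heart, at least 3511-fold higher in muscle. The list of 30 Hox, Pitx1 and Tbx4 genes summed to 1.81 to 4.29 CPM in hearts and 211 to 378 in muscles. The 20 members tested were all higher in muscle, a direction that is largely fixed by the filter on low counts, which genes near 0 in heart pass through muscle. Without A33 1 of 23 tested was higher in heart, and without A55 1 of 21. Tbx4, a hindlimb factor, was low but detected at 2.69 to 6.05 CPM in muscles and 0 to 0.393 in hearts (log2 difference -5.10 ± 0.80 (SE), edgeR adjusted p = 0.00016). Hoxa11 and Hoxa13, at 0.246, 4.07, 5.07, 3.49 and 4.15 and 0.172, 8.30, 7.05, 5.62 and 8.19 CPM in muscles and 0 in hearts, were low in A33 and were not tested.

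Peptide hormones marked both tissues. The natriuretic peptide Nppa had 33.1, 25.9, 67.9, 188 and 177 CPM in hearts and 3 counts over the muscles, a ratio of 8662 (95% counting interval 2963 to 42008), with 61.5% of its exon bases shared with a gene on the other strand. Nppb had 14.2, 8.04, 24.5, 69.1 and 72.3 CPM in hearts and no count in muscle, at least 3316-fold higher. Both peptides were highest in R1795 and R1800 and differed over 5-fold among hearts. Myostatin (Mstn), which restrains muscle growth, measured 1.42, 1.06, 0.461, 0.370 and 0.502 CPM in hearts and 61, 78.8, 145, 16.5 and 137 in muscles (log2 difference -6.83 ± 0.67 (SE), edgeR adjusted p = 4.61e-06). Musclin (Ostn) measured 0 to 0.151 CPM in hearts and 3.12, 54.9, 43.7, 77.1 and 36.6 in muscles (log2 difference -9.41 ± 0.99 (SE), edgeR adjusted p = 7.93e-06), lowest in A33. Leptin (Lep), a hormone of fat cells, had 109, 2.73, 32.6, 56.4 and 3.37 CPM in muscles and was highest in A33, A55 and A51.

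Most genes of glycolysis that passed the test were higher in muscle. Of 33 tested genes of glucose uptake and glycolysis, 21 were higher in muscle and 5 in heart, with a median of -1.62 (of 18 with undisturbed models, 12 and 2). Muscle phosphofructokinase (Pfkm), the committed step, measured 617, 729, 662, 719 and 705 CPM in hearts and 3137, 4206, 5229.5, 1712 and 5687 in muscles (log2 difference -2.54 ± 0.30 (SE), edgeR adjusted p = 1.71e-05). Lactate dehydrogenase A (Ldha), the form suited to making lactate, measured 297, 318, 292, 309 and 344 CPM in hearts and 2150.2, 2276, 3194, 1061 and 3161 in muscles (log2 difference -2.92 ± 0.28 (SE), edgeR adjusted p = 3.45e-06). Ldhb, the form suited to burning lactate, did not pass the test, at 587, 724, 633, 689 and 705 CPM in hearts and 164, 697, 179.8, 1261 and 179.8 in muscles (log2 difference 0.43 ± 0.55 (SE), edgeR adjusted p = 0.505), although it did without A55 (1.12, edgeR adjusted p = 0.0394). Ldhb made 81.8 ± 0.885% (SD) of the family in hearts and 10.6 to 71.5% in muscles, so that A55 came close to the hearts. The lactate exporter Slc16a3 measured 2.98 to 4.63 CPM in hearts and 74.9 to 423 in muscles (log2 difference -6.14 ± 0.48 (SE), edgeR adjusted p = 8.39e-07), and the importer Slc16a1 was higher in heart (2.13 ± 0.32).

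The other enzymes of the pathway kept this direction. Differences towards muscle were -3.52 ± 0.28 for Aldoa (of which the muscle table holds a second model), -3.18 ± 0.22 for Pgam2, -2.72 ± 0.27 for Eno3, -2.60 ± 0.24 for Tpi1, -2.44 ± 0.28 for Pkm and -1.92 ± 0.24 for Pgk1. Gapdh, which has many processed pseudogenes that make its counts uncertain, varied from 8.92 to 102 CPM among hearts and measured 587 to 1135 in muscles. The genes against the list were forms used outside skeletal muscle. Hexokinase 1 (Hk1) measured 146, 145, 134, 146 and 176 CPM in hearts and 20.2, 13.9, 15.8, 24.8 and 14.5 in muscles (log2 difference 3.07 ± 0.17 (SE), edgeR adjusted p = 8.38e-08), with Pfkl at 2.30 ± 0.24, Pfkp at 1.86 ± 0.26, Pfkfb2, which raises glycolytic flux in the heart, at 2.12 ± 0.23 and Gpd1l at 0.51 ± 0.12. The insulin-regulated glucose transporter Slc2a4 was present in both, at 278 to 319.9 CPM in hearts and 500.0 to 788 in muscles (log2 difference -1.11 ± 0.15 (SE), edgeR adjusted p = 4.83e-05). Hexokinase 2 (Hk2) did not pass the test (316 to 449 and 326 to 667 CPM), although without A33 it was called towards muscle (-0.58, edgeR adjusted p = 0.0233).

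Glycogen genes were mostly higher in muscle, 12 of 23 against 6 in heart. Phosphorylase kinase, which turns on glycogen breakdown at contraction, differed by -4.05 ± 0.45 for its catalytic subunit Phkg1 and -3.63 ± 0.46 for Phka1. Glycogen synthase Gys1 differed by -2.34 ± 0.17 and the primer Gyg by -2.38 ± 0.17. Brain glycogen phosphorylase (Pygb) was a gene of the hearts, at 736 to 829 CPM against 8.73 to 57.9 (log2 difference 4.88 ± 0.48 (SE), edgeR adjusted p = 4.86e-06). The muscle phosphorylase Pygm, at 760.1 to 882 CPM in hearts, lay in a stretch near 0 in the muscle table (0.0309 to 2.93 CPM), and Pgm1, which interconverts glucose phosphates, was near 0 there as well (0 to 0.216 against 145 to 177).

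Of 20 tested genes of beta-oxidation, 10 were higher in heart and 1, the peroxisomal thiolase Acaa1a (-0.42 ± 0.11), in muscle, with a median of 0.42, while 9 did not pass the test. The former number was 7 without A33 and 15 without A55. The trifunctional protein subunit Hadha measured 847, 1172, 1028, 1064 and 967 CPM in hearts and 401, 748, 380.0, 705 and 515 in muscles (log2 difference 0.88 ± 0.21 (SE), edgeR adjusted p = 0.00295). The very-long-chain dehydrogenase Acadvl measured 490.1 to 651 CPM in hearts and 114 to 245 in muscles (log2 difference 1.78 ± 0.19 (SE), edgeR adjusted p = 8.97e-06), the only member past 2-fold, with 42.9% of its exon bases shared with a gene on the other strand. The fatty acid transporter Cd36 differed by 1.29 ± 0.25 and lipoprotein lipase (Lpl) by 0.96 ± 0.36, where A33, A40 and A55 lay nearer to the hearts. The call of Lpl was lost without R1791, R1792, R1795, R1800, A51 or A57 (0.77 to 0.96). Cpt2, the inner carnitine palmitoyltransferase, measured 127, 167, 169, 170.3 and 155 CPM in hearts and 88.4, 108, 66.2, 100.3 and 87.4 in muscles (log2 difference 0.81 ± 0.14 (SE), edgeR adjusted p = 0.000323). Its outer partner Cpt1a was higher in heart (1.90 ± 0.15), and the muscle form Cpt1b, at 7.14 to 10.3 and 4.74 to 20.2 CPM, could not be judged because 81.4% of its exon bases are shared with a gene on the same strand.

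The nuclear receptor Ppara, which drives fatty acid genes, measured 42.8, 52.1, 48.7, 45.4 and 68.6 CPM in hearts and 3.86, 13.9, 2.41, 4.66 and 7.49 in muscles (log2 difference 2.99 ± 0.42 (SE), edgeR adjusted p = 6.78e-05). The coactivators of mitochondrial biogenesis were higher in heart, Ppargc1a by 2.04 ± 0.27 and Ppargc1b, at 53.2 to 79.9 and 5.56 to 8.89 CPM, by 3.10 ± 0.17. Uncoupling protein 3 (Ucp3) was higher in muscle (-1.85 ± 0.30). Of 26 genes of lipid droplets and PPAR targets, 6 were higher in heart and 8 in muscle. The latter include Cidec (498, 9.62, 86, 156 and 11.5 CPM in muscles), a protein of fat cells that was highest in A33.

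Few nuclear respiratory chain genes were higher in heart in CPM. Of 36 nuclear subunits of complex I, 23 were higher in muscle and 2 in heart (median -0.62), of 18 of complex IV 9 and 1 (median -0.46), and of 22 genes of ATP synthase and its carriers 12 and 3 (median -0.46). With library totals in place of TMM these medians were -0.19, -0.03 and -0.02. They lie beside a median of -0.47 over all genes in the fifth with the shortest exons, and short messages such as cytosolic ribosomal protein genes were lower in heart for 72 of 78. The most abundant nuclear subunit with comparable counts, Atp5b, measured 2537, 3127, 2820.3, 2939 and 2931 CPM in hearts and 2791, 3955, 3005, 4047 and 3529 in muscles (log2 difference -0.27 ± 0.16 (SE), edgeR adjusted p = 0.14), ranges that overlapped. Without A33 it was called towards muscle (-0.48, edgeR adjusted p = 0.013). The counts of Atp5a1 and Uqcrc1 in muscle (74 to 97.6 and 23.2 to 29.2 CPM) were over 20-fold below those of heart (2266 to 2675 and 658 to 756), unlike other subunits of their complexes.

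The muscle and heart subunit Cox6a2 was higher in muscle in CPM (-1.6 ± 0.26), although it made 95.2 ± 0.859% (SD) of its family in hearts and 95.6 ± 3.41% in muscles. Slc25a4, the nucleotide carrier of striated muscle, measured 1809 to 2471 CPM in hearts and 2999 to 4847 in muscles (log2 difference -0.91 ± 0.17 (SE), edgeR adjusted p = 0.000535), and Slc25a5, the form of other cells, was higher in heart (1.27 ± 0.19). Mcu, the pore of the mitochondrial calcium uniporter, measured 24.0 to 30.1 CPM in hearts and 34.5 to 50.9 in muscles (log2 difference -0.73 ± 0.11 (SE), edgeR adjusted p = 0.000132). Citric acid cycle genes had 3 members higher in heart and 7 in muscle of 20, none past 2-fold, and their median of -0.15 became 0.29 with library totals in place of TMM. Without A33, where adipocyte RNA was highest, 0 were higher in heart and 9 in muscle.

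**Figure D4:**
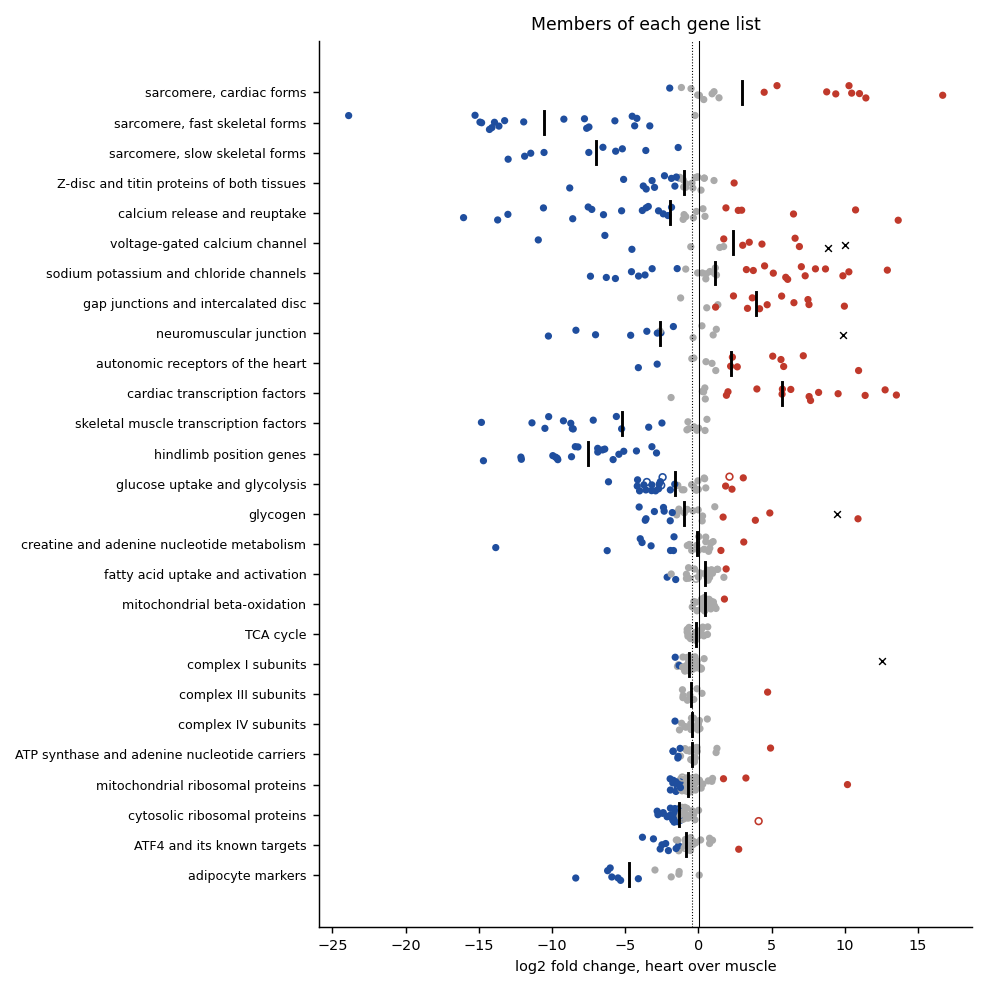
Log2 of heart over muscle for the tested members of 27 gene lists, 1 point per gene, with a black bar at the median of each list, a solid line at the median of all tested genes (0.07) and a dotted line at the median of the fifth with the shortest exons (-0.47). Cardiac transcription factors (median 5.73) and fast sarcomere genes (median -10.56) are at the ends, and oxidative metabolism is near the lines.

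Of 23 tested genes of creatine and adenine nucleotide metabolism, 7 were higher in heart and 10 in muscle, and their median of -0.11 became 0.29 with library totals in place of TMM. Muscle creatine kinase (Ckm) measured 834, 939.7, 932, 1069.5 and 1122 CPM in hearts and 10265, 13766, 19131, 6349 and 20959 in muscles (log2 difference -3.85 ± 0.34 (SE), edgeR adjusted p = 1.79e-06), while the mitochondrial kinase Ckmt2 did not pass the test (809 to 981 and 777 to 1897 CPM) other than without A33 or A51 (-0.69 and -0.59). AMP deaminase Ampd1, which keeps adenylate ratios up in hard work, measured 0.242, 0.0364, 0.0989, 0 and 0.0334 CPM in hearts and 885, 1260.5, 1824, 454 and 2141 in muscles (log2 difference -13.84 ± 0.76 (SE), edgeR adjusted p = 6.95e-08). In hearts Ampd3 made 83.0 ± 4.35% (SD) of the family. The energy sensor AMPK used the gamma subunit Prkag3 in muscles (49.9 to 397 CPM against 2.59 to 3.48, log2 difference -6.23 ± 0.57 (SE), edgeR adjusted p = 2.85e-06) and Prkag1 in hearts (1.54 ± 0.15, with 43.7% of its exon bases shared with a gene on the other strand). Of 19 genes of ketone body and branched-chain amino acid oxidation, 7 were higher in heart, and 3 in muscle (6 without A33), among the former Oxct1, the entry step of ketone oxidation, with 750.2, 848, 842, 955 and 915 CPM in hearts and 304, 572, 301, 499 and 486 in muscles, 1.99-fold (edgeR adjusted p = 0.000878).

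Taz, the cardiolipin transacylase targeted in the other genotype, measured 34.6, 34.8, 37.5, 37.5 and 36.4 CPM in wild-type hearts and 54.7, 63.6, 64.4, 72.4 and 65.6 in wild-type muscles (log2 difference -0.83 ± 0.08 (SE), edgeR adjusted p = 5.73e-06). All muscles lay above all hearts, and the fitted difference was under 2-fold. In the Taz-KD libraries the same difference was -0.75 (edgeR adjusted p = 1.13e-06). Of 12 genes of cardiolipin synthesis and remodelling, 7 were higher in muscle, with a median of -0.42 (0.0048 with library totals in place of TMM). Cds2 of this list was higher in heart, at 233, 219, 222, 223 and 217 CPM against 64.7, 61.2, 50.1, 61.7 and 57.4 (log2 difference 1.92 ± 0.09 (SE), edgeR adjusted p = 2.37e-08). Lclat1, an acyltransferase of cardiolipin, was higher in heart as well, at 94.8, 106, 99.6, 107 and 134 CPM against 21.3, 26.5, 25, 18.8 and 28.3 (log2 difference 2.17 ± 0.14 (SE), edgeR adjusted p = 1.96e-07). The phospholipase Pla2g6 was higher in muscle (-1.80 ± 0.15), and cardiolipin synthase Crls1 differed by -0.49 ± 0.10.

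The stress and amino acid genes that the study followed in Taz-KD mice had a baseline of their own. Atf4, the transcription factor of the integrated stress response, measured 30.4, 35.3, 36.3, 33 and 41.8 CPM in wild-type hearts and 157, 197, 198, 231 and 207 in wild-type muscles (log2 difference -2.49 ± 0.13 (SE), edgeR adjusted p = 4.05e-08). Of 30 genes of the ATF4 list, 19 were higher in muscle and 3 in heart (median -0.86, or -0.44 with library totals in place of TMM). Chac1, which degrades glutathione, measured 5.17, 5.09, 5.77, 5.44 and 7.12 CPM in hearts and 84.6, 107, 96.3, 9.26 and 107 in muscles (log2 difference -3.82 ± 0.54 (SE), edgeR adjusted p = 7.1e-05), with A55 apart. The arginine transporter Slc7a1 went towards heart (35.3 to 77.0 CPM against 4.48 to 11.1, log2 difference 2.76 ± 0.27 (SE), edgeR adjusted p = 4e-06). Asns and Trib3, which ATF4 induces, did not pass the test (1.84, 0.619, 1.45, 2.18 and 1.81 CPM in hearts and 12, 1.46, 2.91, 5.16 and 1.04 in muscles for Asns), but Asns did without A40 or A57 (-1.74 and -1.76).

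Serine synthesis was low in both tissues, except in muscles with many adipocyte markers. Phgdh, its first enzyme, measured 2.06, 1.09, 1.71, 0.974 and 0.936 CPM in hearts and 47.4, 2.63, 13.5, 22.8 and 2.13 in muscles (log2 difference -3.70 ± 0.82 (SE), edgeR adjusted p = 0.00188; -3.02 without A33). Psat1, the next enzyme, measured 2.45, 2.0, 2.57, 2.18 and 2.01 CPM in hearts and 21.2, 2.99, 6.52, 11.3 and 1.79 in muscles (log2 difference -1.96 ± 0.57 (SE), edgeR adjusted p = 0.00985). Psat1 in A57 lay below every heart. Both enzymes were highest in A33, A55 and A51, the muscles with most adipocyte RNA, and the part of that RNA in the difference was not tested. Mthfd2, the mitochondrial folate enzyme, measured 0.764 to 2.35 CPM in hearts and 4.17 to 6.05 in muscles (log2 difference -1.53 ± 0.27 (SE), edgeR adjusted p = 0.000442). In the Taz-KD libraries the differences were 3.95 for Phgdh, 1.25 for Psat1 and 1.01 for Mthfd2, all towards heart. Of 19 serine and one-carbon genes, 4 were higher in wild-type heart and 9 in wild-type muscle, and the sign of their median (-0.15) turned with library totals (0.29).

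Antioxidant genes leaned towards muscle, with 16 of 30 higher there and 6 in heart (median -0.40, 0.00038 with library totals). Mitochondrial superoxide dismutase Sod2 was higher in heart (421 to 507 CPM against 259 to 352, log2 difference 0.63 ± 0.12 (SE), edgeR adjusted p = 0.000701) and cytosolic Sod1 in muscle (-1.11 ± 0.12). The glutathione transferase Gstp1 measured 27.6 to 34.9 CPM in hearts and 2.13 to 3.53 in muscles (log2 difference 3.55 ± 0.14 (SE), edgeR adjusted p = 8.77e-09). The transhydrogenase Nnt had 644 to 905 CPM in hearts and 0.233 to 1.67 in muscles, but the muscle table holds a second model of this gene, so that its value there is not a level of the gene.

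The dystrophin complex, which links the cytoskeleton to the matrix, differed by member. Dystrophin (Dmd) measured 448, 577, 516, 516 and 549 CPM in hearts and 87.4, 141, 122, 107 and 148 in muscles (log2 difference 2.10 ± 0.16 (SE), edgeR adjusted p = 5.88e-07). Utrophin (Utrn), its relative, measured 314, 317, 312, 338 and 323 CPM in hearts and 70.2, 35.9, 42.7, 67.3 and 38.9 in muscles (log2 difference 2.65 ± 0.20 (SE), edgeR adjusted p = 7.28e-07). Delta-sarcoglycan Sgcd and laminin Lama2 were higher in heart (3.64 ± 0.17 and 3.07 ± 0.27), and alpha-sarcoglycan Sgca in muscle (-1.83 ± 0.14). Bin1, which forms the membrane folds of T-tubules, measured 6.77 to 9.49 CPM in hearts and 469 to 961 in muscles (log2 difference -6.53 ± 0.26 (SE), edgeR adjusted p = 8.39e-09). Genes of limb-girdle dystrophies towards muscle were Capn3 (-5.96 ± 0.24) and Ano5 (-6.92 ± 0.54). Of 30 genes tested, 15 were higher in heart and 11 in muscle. Dmd, Utrn and Lama2 are very long messages, and the median of all genes in the fifth with the longest exons was 0.81.

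Genes of muscle growth and loss were mixed, with 5 of 20 higher in heart and 10 in muscle. The polyamine enzymes Smox and Amd1 were higher in muscle (-4.63 ± 0.56 and -3.73 ± 0.62), at 168, 384, 595, 75.6 and 698 CPM for Smox in muscles and 13.8 to 19.4 in hearts, and both were lowest in A55. The ubiquitin ligase Trim63 measured 121 to 182 CPM in hearts and 202 to 594 in muscles (log2 difference -1.31 ± 0.27 (SE), edgeR adjusted p = 0.00106). Its partner Fbxo32 lay in a stretch near 0 in the muscle table. Foxo3, which switches both ligases on, was higher in heart (261 ± 43.0 CPM against 38.9 ± 8.62, SD, log2 difference 2.75 ± 0.18 (SE), edgeR adjusted p = 2.25e-07).

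Markers of the main cells followed the tissue labels. Summed CPM of cardiomyocyte markers were 38199 to 52515 in hearts and 228 to 10225 in muscles, where the upper value is A55 through Myl2 and Myl3, genes that slow fibres share. Of 12 tested, 10 were higher in heart, and the 12 fast myofibre markers were all higher in muscle. For markers near 0 in the other tissue the filter on low counts largely fixes this direction. Endothelial markers were higher in heart for 10 of 16 and in muscle for 2, with sums of 1528 to 1739 and 740.2 to 1299.8 CPM. Fibroblast markers were higher in heart for 8 of 15, macrophage markers for 8 of 14 (13 without A33, which had 101 CPM of the leukocyte gene Ptprc against at most 3.64 in other muscles and 258 CPM of summed lymphocyte markers against at most 3.38 in any other library, and whose removal turned the difference of Ptprc from -0.45 to 2.41), and red cell markers for 7 of 7 (410.1 to 703 against 74.2 to 158 CPM). Sums were 2119 to 4555 and 2031 to 3222 CPM for fibroblast and 343 to 475 and 123 to 433 for macrophage markers. No member of these last 3 lists was higher in muscle. Myelin and nerve markers were higher in muscle for 8 of 11 and summed to 65.2 to 98.3 CPM in hearts and 237 to 1754 in muscles, highest in A55 and next in A51. Adipocyte markers summed to 322 to 374 CPM in hearts and 351 to 5274 in muscles, and 10 of 12 were higher in muscle. Their part in the differences of other genes was not tested. Adiponectin (Adipoq) measured 4.50, 0.400, 1.38, 0.370 and 0.368 CPM in hearts and 327, 8.04, 74.6, 112 and 7.13 in muscles.

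The muscles were far from uniform, and the hearts were close to each other. Among the muscles A55 had the highest Myh7, Tnni1, Tnnt1, Tpm3 and Ankrd2, all genes of slow fibres, and the lowest Myh4, Actn3, Pvalb and Atp2a1. Slow troponin I (Tnni1) measured 31.2, 546, 139, 1455 and 9.77 CPM and slow troponin T (Tnnt1) 62.3, 1494, 366, 4181 and 24.2. The order A55, A40, A51 held for these slow genes, and A57 and A33 were low. Myh2, the motor of oxidative IIa fibres, followed in part, with 1538, 6670.2, 1360.1, 8404 and 2574 CPM, and IIx myosin Myh1 did not (3791, 3325, 1407, 4055 and 3222). The glycolytic enzymes Pfkm and Ldha were lowest in A55, and Ldhb was highest there, as given above. The sampled muscles were not named, and whether A55 and A40 came from other muscles than the rest was not tested.

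**Figure D5:**
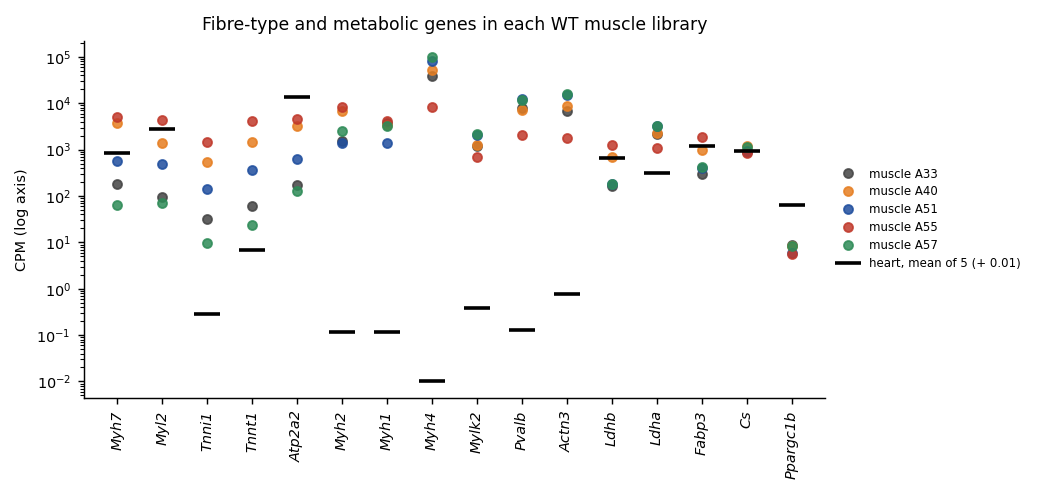
CPM of 16 genes of slow and fast fibres in each wild-type muscle (points, 1 per library, log axis), with a black dash at the mean of the 5 hearts. A55 is the highest muscle for Myh7 (4989 CPM) and the lowest for Myh4 (8452 CPM).

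The number of calls moved with single muscles. Leaving A55 out raised the calls towards heart from 5369 to 5687 and the 2-fold calls from 2736 to 2943, and leaving A33 out raised the calls towards muscle from 4622 to 5279 and the 2-fold calls from 1604 to 2078. Among hearts, 2 atrial genes varied. Myl7, the atrial light chain, had 8.25, 1.71, 11.2, 0.403 and 0 CPM in hearts, and Myl4 18.8, 5.53, 20.9, 1.08 and 1.40, with R3, R1791 and R1792 above R1795 and R1800 for both genes. The sum of the listed atrial genes, which include Nppa, did not follow that order, at 757 to 1005 CPM in hearts.

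The Taz-KD libraries offered the same contrast in other animals, but their counts were deposited together with the wild-type counts of each tissue. Of 14402 genes tested in Taz-KD, 3373 (23.4%) were past 2-fold towards heart and 2279 (15.8%) towards muscle. Of the 2736 genes past 2-fold towards heart in wild type, 2410 (88.1%) were so in Taz-KD too, which is 71.4% of the Taz-KD list. Towards muscle 1415 of 1604 (88.2%) were, or 62.1% of the Taz-KD list, and 1 gene was past 2-fold in the opposite direction. Differences in library type or gene models between hearts and muscles would recur in Taz-KD. The stretches of neighbouring genes with few or no muscle counts, for example, were found in both genotypes. The shared calls therefore cannot tell such differences from those of the tissues. Of the ATF4 list 13 members were past 2-fold towards heart in Taz-KD and 1 in wild type. The difference between the genotypes was not tested here.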

How the data were processed

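Per the labels, total RNA of frozen heart and femur muscle was sequenced after removal of ribosomal RNA, with random hexamers and strand marking by dUTP. The deposited values are raw counts of reads per Ensembl gene, 1 table per tissue. Per the methods of the study, the authors aligned 150 bp read pairs to GRCm38 with STAR in its default settings and counted with featureCounts 1.6.4. Which annotation release, strand setting and multi-mapper rule were used is not given in the sources used here. The tables list 47069 genes for heart and 53801 for muscle, of which 46574 and 53706 are in GENCODE M21. The 21637 protein-coding genes with IDs in both tables were used, and 330 found only in the muscle table were left out. Total counts were 26963288 to 30090918 per heart and 36429399 to 61100247 per muscle.

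Genes were kept by filterByExpr by tissue, scaled with TMM factors on protein-coding totals and tested with edgeR 4.0.16 (R 4.3.3), by the robust quasi-likelihood test, at a Benjamini-Hochberg adjusted p under 0.05, and with glmTreat against a log2 fold change of 1. The edgeR steps were also run on counts simulated from the muscle means, with few genes changed. That setting is unlike these tissues, so the run cannot judge the scaling between them. Isoform shares used counts per kilobase of merged exon and an exact two-sided permutation test. Intervals of counts are exact at 95%, folds against a tissue without counts set it at 3 counts in sum and use library totals without TMM, and both cover counting error only. DESeq2 1.42.0, limma-voom (limma 3.58.1), other scalings, filters, gene sets and the removal of each library were alternatives. Restriction to undisturbed gene models, to libraries with Y-linked reads and the list counts without A33 or A55 were chosen after seeing the data. A stretch near 0 means at least 3 neighbouring genes of more than one family, at 1 CPM or more in heart and over 200 times lower in muscle. The study counts its n in hearts or animals, and whether animals of one tissue shared a litter or a day of preparation is not given in the sources used here. Promoters were matched by symbol to RefSeq (GRCm38.p6), for 11063 of the tested genes.

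The comparison, the lists and the families were chosen with earlier results of these data known. Named genes are the 15 with the largest difference each way past 2-fold with a mean of at least 50 CPM, the 10 highest per kilobase, members of families described, up to 6 members per list with the smallest adjusted p, members against the direction of their list, and genes of stress, one-carbon and cardiolipin lists and of sample checks. Chosen after their values were seen were Adrb1, Amd1, Ano5, Atp5b, Cacng7, Cd36, Chrnd, Csrp3, Des, Dsg2, Dsp, Gapdh, Hand2, Hoxa11, Hoxa13, Irx4, Kcne1, Kcnh2, Kcnq1, Lama2, Lpl, Mef2c, Musk, Myocd, Myod1, Myom2, Neb, Nppb, Orai1, Oxct1, Pgk1, Phka1, Phkg1, Pkm, Ptprc, Slc8a3, Smox, Tbx4, Tbx5, Tpm3 and Trim63. Some genes of the lists are not reported here.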

Additional observations from a re-analysis of the deposited data

Results flagged for a closer look

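A library was singled out where its gap to the nearest other library of its tissue exceeded the 95% critical value of Dixon's test (0.71 for 5 libraries), which chance gives in about 1 of 20 groups. Of 390 pairs of a named gene and a tissue, 25 were singled out in this way, a little above that share. A55 accounted for 8 of them, R3 and A33 for 5 each, R1800 for 4, R1791 for 2 and R1795 for 1. In the muscle A55 these were the desmosomal Dsp at 9.14 CPM, Cacna1c at 10.3, Sgcd at 7.13, Prkag1 at 26.8, Sln at 117, the stress gene Atf3 at 38.5 and the tendon gene Tnmd at 12.1, all high, and Chac1 at 9.26, low. In the muscle A33 they were Ptprc at 101 CPM, Adrb3 at 37.8, Dsg2 at 2.51, Eif2ak2 at 8.06 and Des at 2784. In the heart R3 Ttn was low at 57668 CPM and Lpl at 2907, and Tpm2 at 39.9, Sgca at 60.1 and Adipoq at 4.50 were high. In the heart R1800 Hk1 was high at 176 CPM, Myocd at 176.0, Nkx2-5 at 48.8 and Smox at 19.4. R1791 was high for Chrm2 at 235 and Sgcd at 70.9, and R1795 for Meox2 at 22.7. The directions of the differences between tissues stood without these libraries, other than for Ptprc, which was 2.41 towards heart without A33.

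Outside the protein-coding genes, 3 of 10 listed RNAs that lack a poly(A) tail carried signal in the hearts and next to none in the muscles, and the others had at most 9.24 CPM of all counts in any library. The median of the hearts was 9053 CPM of all counts for Rn7sk, 2601 for Rpph1 and 686 for Rmrp. The muscles had 67 counts of Rn7sk in sum and none of the other two, although the protocol in the labels describes the removal of ribosomal RNA for the series.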

How the results depend on the processing

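Of 227 named genes looked at in this way, 188 kept the same call under all 23 alternatives and 208 were called in all libraries. Of the latter, 38 moved over 1.5-fold when 1 library was left out, all still called. Several of these 38 were near 0 counts in one tissue. With protein-coding library totals, 2838 genes were higher in muscle and 901 past 2-fold, and Atp5b (0.16), Cpt1b (0.26), Hk2 (0.14), Myl4 (0.0031), Myom2 (0.24), Myoz2 (0.34) and mt-Co1 (0.24) turned towards heart without a call, while Acaa1a, Crls1, Jph2 and mt-Nd5 lost theirs. That scaling changed the sign of the median of 9 of 62 lists, median-ratio factors of 3 and upper-quartile factors of 0. DESeq2 gave 5098 genes higher in heart and 5220 in muscle, and limma-voom 5691 and 4435. With noncoding genes included, which adds genes to the test, 8414 were higher in heart, 5810 of all past 2-fold towards heart and 2486 towards muscle. Restricted to undisturbed gene models, which leaves 9021 genes, the numbers were 3268, 2876, 1574 and 1001. In the 2 hearts and 5 muscles with Y-linked reads, 15064 genes were tested. There 3968 were higher in heart and 3839 in muscle, with 2024 past 2-fold towards heart and 1307 towards muscle. Leaving out 1 library gave 5137 to 5687 genes higher in heart, 4369 to 5279 in muscle, 2622 to 2943 past 2-fold towards heart and 1515 to 2078 towards muscle.

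Genes that changed sign had no call before: Cpt1b (-0.45 to 0.29 over the libraries left out, 0.054 with limma-voom), Myh7 (0.37 with limma-voom), Myl3 (-0.034 to 1.40), Myoz2 (-0.42 to 1.03; 0.00055 with at least 10 counts per library, 0.044 with undisturbed models, 0.86 with limma-voom), Ptprc (-0.74 to 2.41, 1.49 with limma-voom), Tnnc1 (-0.33 to 1.36, -0.058 with noncoding genes) the share of Aldoc in aldolase (-0.00059 to 0.0011 percentage points) and the share of Cox6a2 in cytochrome oxidase subunit 6a (-1.9 to 0.17). In the libraries with Y-linked reads, which leave 2 hearts, Tnnc1 stood at -0.15 and Trib3 at -0.049. The upper ends of Cpt1b, Myl3, Myoz2 and Tnnc1 are without A55, and that of Ptprc without A33. Limma-voom lost the calls of Adrb3, Lep, Phgdh, Psat1 and Sln. The cause was not tested. No paired analysis was possible because hearts and muscles carry different animal numbers. Genes with few counts, such as those near 0 in one tissue, have folds that rest on the floor or the prior count.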

Other observations

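Several gene lists that stand outside the roles described above also differed, and each count below is edgeR at an adjusted p under 0.05, read against the shares of all genes (37.6% higher in heart and 32.4% in muscle). Interferon-induced genes were higher in heart for 8 of 14 and in muscle for 0, with a median of 0.95. Rsad2, an antiviral enzyme, measured 14.1, 21.8, 22.2, 20.6 and 23.8 CPM in hearts and 6.29, 4.83, 3.87, 4.54 and 3.58 in muscles (log2 difference 2.15 ± 0.19 (SE), edgeR adjusted p = 1.78e-06), with no overlap. The eIF2 kinases, which stand upstream of ATF4, went both ways. The kinase activated by double-stranded RNA, Eif2ak2, had 18.1 to 21 CPM in hearts and 4.33 to 8.06 in muscles (log2 difference 1.84 ± 0.17 (SE), edgeR adjusted p = 2.41e-06), and the kinase of heme shortage and mitochondrial stress, Eif2ak1, had 32.4 to 35.5 in hearts and 38.5 to 80.6 in muscles (log2 difference -0.88 ± 0.17 (SE), edgeR adjusted p = 0.000672). Of that list of 9 genes, 4 were higher in heart and 3 in muscle.

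The circadian clock list was split, with 6 of 17 genes higher in heart and 8 in muscle. The paralogues Npas2 and Clock, which pair with the same partner, were both higher in heart (log2 differences 2.52 ± 0.23 and 1.53 ± 0.12), and that partner, Arntl, was higher in muscle, at 0.983 to 2.42 CPM in hearts and 5.23 to 8.78 in muscles (log2 difference -1.95 ± 0.28 (SE), edgeR adjusted p = 7.74e-05). The hour of collection is not given in the sources used here. Of 18 immediate early genes, 4 were higher in heart and 8 in muscle. The orphan receptor Nr4a1 measured 11.1, 20.6, 12.1, 14.7 and 43.0 CPM in hearts and 367, 336, 431, 193 and 587 in muscles (log2 difference -4.24 ± 0.45 (SE), edgeR adjusted p = 9.15e-06), and Atf3 was highest in A55 (38.5 CPM).

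Among the remaining markers, satellite cell genes were higher in muscle for 5 of 8 and in heart for 3, led by the cadherin Cdh15 with 15 to 27.8 CPM in muscles and 2 counts over the hearts, a ratio of 1220 (95% counting interval 338 to 10078). Mesothelial and epicardial markers were higher in heart for 5 of 8 and in muscle for 0. Wt1, a factor of the epicardium, had 5.17 to 10.2 CPM in hearts and 0 to 0.0928 in muscles (log2 difference 8.03 ± 0.62 (SE), edgeR adjusted p = 7.37e-07). Smooth muscle and pericyte markers were higher in heart for 7 of 12 and in muscle for 0. Tendon markers were higher in muscle for 4 of 9, or 6 of 10 without A33, and Tnmd, a membrane protein of tendon cells, had 0.344, 3.45, 2.84, 12.1 and 2.25 CPM in muscles. Of the channel subunits, Cacng1, the gamma subunit of the skeletal voltage sensor, measured 0.0336 to 0.201 CPM in hearts and 128 to 404 in muscles (log2 difference -10.94 ± 0.56 (SE), edgeR adjusted p = 4.24e-08), and Cacnb2, the beta subunit of the cardiac channel, 87.5 to 133 and 0.368 to 1.70 (log2 difference 6.90 ± 0.35 (SE), edgeR adjusted p = 4.13e-08).

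Some RNA classes differed in many of their genes. Mitochondrial ribosomal protein genes were higher in muscle for 62 of 77 and in heart for 6, with a median of -0.71, or -0.28 with library totals in place of TMM. Replication-dependent histone genes, whose messages lack a poly(A) tail, were higher in heart for 42 of 52 and in muscle for 6, with a median of 4.35. Their summed CPM overlapped all the same, at 338 to 399 in hearts and 336 to 408 in muscles. Hist1h1a measured 1.53 to 3.38 CPM in hearts and 0.0246 to 0.0802 in muscles, whereas Hist1h1c, which also makes polyadenylated messages, measured 69.0 to 91.4 and 183 to 279. Among noncoding RNAs, in CPM of all counts, Malat1 had 16400 to 19631 in hearts and 130 to 228 in muscles, while its neighbour Neat1 had 1317 to 1565 and 1866 to 4719 and the imprinted H19 1.36 to 20.7 and 111 to 1118. The part of the library type in these values was not tested.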
